A study of Mus musculus with 9 samples.

Results

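Olfr1507, Olfr73 and Olfr160 are the odorant receptor genes whose alleles carried a fluorescent tag in the mice of this study, and they were taken by symbol from the expected-count and TPM tables, 3 genes of 55291. Odorant receptors are G protein-coupled receptors on the cilia of olfactory sensory neurons, the cells that detect odorants in the nose. Each mature neuron normally transcribes a single receptor gene, from a single allele, at a high level, and the receptor chosen also directs where its axon ends in the olfactory bulb. Olfr1507, also called MOR28, belongs to a cluster controlled by the H enhancer and is used in the ventral part of the epithelium. Olfr73, known as MOR174-9 or mOR-EG, responds to eugenol, and Olfr160, known as M72, responds to acetophenone.

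Mature olfactory sensory neurons came from the main olfactory epithelium of mice with the genotype Olfr1507-IRES-GFP, Olfr73-IRES-GFP or Olfr160-IRES-mCherry. An internal ribosome entry site (IRES) joins the reporter to the receptor in one transcript, so that a cell which transcribes the tagged allele fluoresces. Cells were released with papain, and those bright for the reporter and dim for DAPI, a dye that stains dead cells, were collected by sorting. Polyadenylated RNA was sequenced in 3 libraries per group, 9 in all, after a low-input preparation, and the groups are called Olfr1507, Olfr73 and Olfr160 after the tagged allele. The labels give no age and no zygosity, and they do not tell whether a group's libraries are from different animals. The p-values hence reflect the variation among these libraries alone, part or all of which may be technical. GFP serves 2 of the groups and mCherry the third, so the reporter and the Olfr160 allele cannot be told apart.

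Libraries held 17212807 to 36230606 expected counts. The 15 markers of mature olfactory neurons made up 9.39% to 9.59% of counts in Olfr1507, 6.07% to 6.20% in Olfr73 and 3.51% to 5.52% in Olfr160, and none of them was at 0 in a whole group. All 20 markers of sustentacular and gland cells, the support cells of the epithelium, were in the tables. They made up 0.0295% to 0.0636% of counts in Olfr1507, where Sox10 was at 0 in every library, 0.388% to 0.750% in Olfr73, where Ces1a was, and 2.56% to 5.31% in Olfr160. The 13 markers of respiratory epithelium made up 0.0204% to 0.0323% in Olfr1507, 0.137% to 0.276% in Olfr73 and 0.532% to 1.43% in Olfr160, with Scgb1a1 at 0 in all libraries. Marker shares therefore moved with the groups, and their part in the receptor values below was not tested. In bulk RNA, fewer cells of a type and less RNA per cell cannot be told apart.

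How well reads can be assigned to each tagged receptor depends on how far its sequence differs from that of its closest relative. Over coding sequences, Olfr73 was closest to Olfr74, at 76.6% identity, among 1179 Olfr genes compared. Olfr1507 was closest to Olfr1508, at 92.1%, and Olfr160 to Olfr151, at 96.3%, and each pair lies on one chromosome. The tagged receptors themselves are distant, with identities of 56.1% for Olfr73 and Olfr1507, 59.8% for Olfr73 and Olfr160 and 57.3% for Olfr1507 and Olfr160. The coding stretch of 120 bases that differs most between a tagged receptor and its relative is printed here to show what separates them, 5′ to 3′ on the coding strand, with the differing bases in capitals (GENCODE M21, mm10, all minus strand). There are 35 such bases for Olfr73, 17 for Olfr1507 and 10 for Olfr160.
Olfr73, chr2:88034569-88034688: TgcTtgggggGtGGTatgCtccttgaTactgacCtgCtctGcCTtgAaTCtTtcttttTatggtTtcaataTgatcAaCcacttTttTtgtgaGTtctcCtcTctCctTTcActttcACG
Olfr74, chr2:87974095-87974214: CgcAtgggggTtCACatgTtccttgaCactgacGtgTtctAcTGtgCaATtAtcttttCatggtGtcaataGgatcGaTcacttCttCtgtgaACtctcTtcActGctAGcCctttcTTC
Olfr1507, chr14:52490057-52490176: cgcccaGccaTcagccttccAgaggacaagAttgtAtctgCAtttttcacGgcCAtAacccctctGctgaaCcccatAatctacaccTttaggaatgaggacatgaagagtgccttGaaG
Olfr1508, chr14:52463102-52463221: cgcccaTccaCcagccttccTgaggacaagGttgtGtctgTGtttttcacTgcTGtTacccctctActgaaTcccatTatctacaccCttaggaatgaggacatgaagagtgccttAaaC
Olfr160, chr9:37712158-37712277: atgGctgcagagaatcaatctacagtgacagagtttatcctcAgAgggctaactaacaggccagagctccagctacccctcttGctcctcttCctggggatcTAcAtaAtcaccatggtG
Olfr151, chr9:37730862-37730981: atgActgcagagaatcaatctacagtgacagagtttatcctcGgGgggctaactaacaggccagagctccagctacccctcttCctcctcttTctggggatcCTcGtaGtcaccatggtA

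Stretches of the same length without a single difference exist for Olfr1507 with Olfr1508 and for Olfr160 with Olfr151. They are printed because a read that falls within one cannot be assigned to either gene by its sequence. The relative's copy stands at chr14:52463239-52463358 for Olfr1508 and at chr9:37730736-37730855 for Olfr151.
Olfr1507, chr14:52490194-52490313: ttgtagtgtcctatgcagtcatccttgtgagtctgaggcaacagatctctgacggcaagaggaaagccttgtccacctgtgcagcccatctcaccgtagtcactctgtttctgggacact
Olfr160, chr9:37712032-37712151: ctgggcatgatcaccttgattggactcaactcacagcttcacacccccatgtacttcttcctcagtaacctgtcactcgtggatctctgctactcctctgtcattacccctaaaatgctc

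The longest identical run in the coding sequence was 143 bases for Olfr1507 and Olfr1508, 177 for Olfr160 and Olfr151 and 33 for Olfr73 and Olfr74. Of all windows of 100 bases in the longest transcript, 44 of 2704 in Olfr1507 occurred in another gene's transcripts, always Olfr1508, and 125 of 3393 in Olfr160, always Olfr151. In Olfr73 0 of 2949 did. The counts of the relatives were low where the tagged receptor was high. Olfr74 was at 0 in all 9 libraries, which in the Olfr73 libraries allows at most 0.0144% to 0.0187% of the Olfr73 counts by the limit of 3 counts. Olfr151 had 1, 1 and 0 counts in the Olfr160 libraries and 0 in the others.

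Olfr1508 was not silent. It had 15, 22 and 39 counts in Olfr1507, 143, 134 and 26 in Olfr73, and 407, 835 and 420 in Olfr160. Set against the Olfr1507 counts of the same library, that is 0.0252% to 0.0706% in the Olfr1507 libraries, 9.89% to 17.2% in the Olfr73 libraries and 26.7% to 39.4% in the Olfr160 libraries. Olfr1508 was lower in every Olfr1507 library than in any Olfr160 library, while the Olfr1507 and Olfr73 groups overlapped through Olfr73 library 3. Its log2 fold change in normalised CPM was -4.30 ± 0.69 (SE) for Olfr1507 over Olfr160 and -1.91 ± 0.65 for Olfr1507 over Olfr73 (edgeR, adjusted p = 0.00103 and 0.0461).

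Olfr1507 (ENSMUSG00000059887.7, chr14:52488791-52495749, 5 annotated transcripts) was far higher in its own libraries than elsewhere. Its level in normalised CPM (CPM scaled by the TMM-adjusted library size) was 3212, 2685 and 3084 in the Olfr1507 libraries. The Olfr73 libraries had 57.9, 36.4 and 12.3, and the Olfr160 libraries 60.9, 85.7 and 69.99. The 3 Olfr1507 libraries lay close together and far above all others, and the lowest of them was 31.3 times the highest Olfr160 library. The log2 fold change was 6.40 ± 0.53 (SE, n = 3 each) for Olfr1507 over Olfr73 and 5.37 ± 0.50 for Olfr1507 over Olfr160, with edgeR adjusted p-values of 7.07e-05 and 5.33e-05. Neurons were sorted by the tag on this allele, so these differences check the labels.

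Olfr73 (ENSMUSG00000075140.4, chr2:88032288-88037699, 2 transcripts) stood at 917, 948 and 747 normalised CPM in the Olfr73 libraries. It was near 1 elsewhere, at 0.648, 1.75 and 0.726 in the Olfr1507 libraries and at 1.01, 0.606 and 0.711 in the Olfr160 libraries. These low values rest on 12, 53 and 13 counts in Olfr1507 and on 21, 15 and 16 counts in Olfr160. Olfr73 therefore had the widest separation of the 3 receptors, its lowest own library being 427 times the highest Olfr1507 library. The log2 fold change was 9.60 ± 0.35 for Olfr73 over Olfr1507 and 10.14 ± 0.36 for Olfr73 over Olfr160 (edgeR, adjusted p = 9.78e-07 and 3.99e-06). Without Olfr1507 library 2, which held 53 counts, the first was 10.29.

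Olfr160 (ENSMUSG00000061165.9, chr9:37708964-37716250, 3 transcripts) was the most variable of the 3 in its own libraries, at 151, 384 and 735 normalised CPM. It stood at 0.572, 5.57 and 0.280 in the Olfr73 libraries and at 0.594, 0.693 and 0.335 in the Olfr1507 libraries. All Olfr160 libraries lay above all others, but they differed among themselves far more than did the own libraries of either GFP-tagged receptor. The coefficient of variation of the TPM values was 70.0% for Olfr160 in its own libraries, against 13.3% for Olfr1507 and 15.5% for Olfr73 in theirs. The log2 fold change was 7.63 ± 0.99 for Olfr160 over Olfr73 and 9.54 ± 1.12 for Olfr160 over Olfr1507 (edgeR, adjusted p = 0.00282 and 0.000185). Olfr73 library 2, with 119 counts of Olfr160 against 13 and 6 in the other Olfr73 libraries, lowers the first value, which was 9.95 without it. Without Olfr160 library 3 the values were 6.97 and 8.88.

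**Figure D1:**
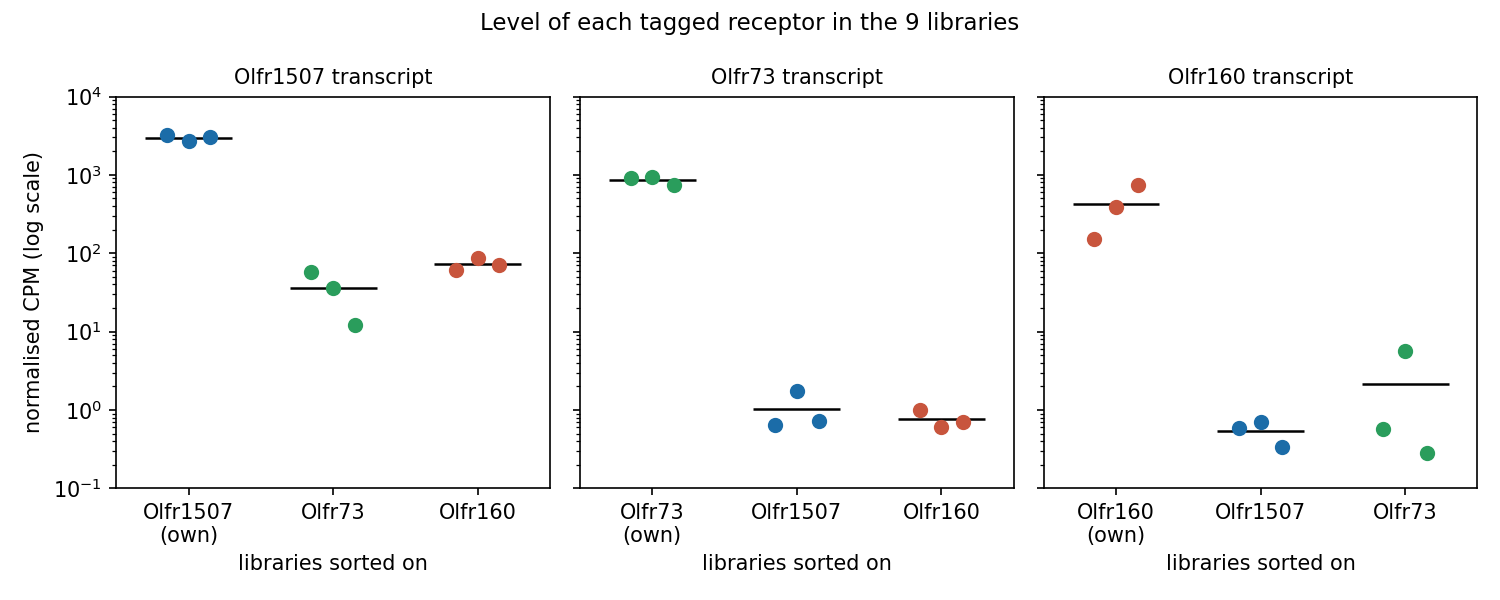
Normalised CPM (log axis) of each tagged receptor in each of the 9 libraries, 1 panel per receptor with its own group at the left; points are libraries and bars are group means. The own libraries of each receptor lie above all others, and the Olfr160 libraries are the most spread of the own groups, at 151 to 735.

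Each receptor passed the test in both comparisons that involve its own group, 6 of 6 tests, all higher in its own group. Because the cells were sorted by these tags, the tally checks the labels and is no further result about the receptors. Many other genes passed too. Of the 16399 genes tested, 48.4% passed for Olfr1507 over Olfr160, 20.7% higher and 27.7% lower, and the median of all log2 fold changes was -0.14. In Olfr1507 over Olfr73, 34.4% passed, 14.5% higher and 19.9% lower, with a median of -0.15. In the comparison of Olfr73 over Olfr160, 17.9% passed, 7.45% higher and 10.5% lower, with a median of -0.012. Passing the threshold was therefore common in all 3 comparisons.

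Between the groups that do not carry its tag, no receptor passed the test. Olfr1507 was at 35.5 ± 22.8 normalised CPM in Olfr73 and at 72.2 ± 12.6 in Olfr160 (mean ± SD, n = 3). The groups did not overlap, with a log2 fold change of -1.02 ± 0.43 for Olfr73 over Olfr160 and an edgeR adjusted p of 0.126. It passed with limma-voom, at -1.27 (adjusted p = 0.0431), and in edgeR without Olfr73 library 1, at -1.57 (adjusted p = 0.0341). In the order of its levels, Olfr1507, Olfr160 and Olfr73, the lower neighbours are therefore not clearly apart.

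Olfr73 differed by 0.54 ± 0.39 on the log2 scale for Olfr1507 over Olfr160, with overlapping groups (edgeR, adjusted p = 0.281), and by -0.16 without Olfr1507 library 2. Olfr160 differed by -1.91 ± 1.17 for Olfr1507 over Olfr73, also with overlap (edgeR, adjusted p = 0.229). Without Olfr73 library 2 that value was 0.40, so its sign rests on 1 library.

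The untagged receptors as a whole differed in level between the groups, and each tagged gene outside its own group was therefore also set against all untagged receptors of the same library. Olfr1507 took 0.802% to 1.86% of the untagged Olfr counts in the Olfr73 libraries and 0.859% to 1.07% in the Olfr160 libraries, where an even split over all untagged Olfr genes would give 0.0711%. Olfr1507 was thus among the more abundant untagged receptors, ranking 3, 14 and 35 among Olfr genes by counts in the Olfr73 libraries and 12, 7 and 10 in the Olfr160 libraries. On this scale the Olfr73 and Olfr160 groups overlapped (exact two-sided permutation p = 0.5).

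Olfr73 took 0.259% to 0.374% of the untagged Olfr counts in the Olfr1507 libraries and 0.00751% to 0.0143% in the Olfr160 libraries. These groups did not overlap, although their normalised CPM did, and a two-sided exact permutation test gave p = 0.1, which is the floor for groups of 3 (0.3 after adjustment over the 3 receptors). The contrast lies mainly in the denominator, since untagged Olfr genes made up 0.0152% to 0.0391% of all counts in Olfr1507 and 0.709% to 0.884% in Olfr160. Olfr73 itself had 12 to 53 counts in the Olfr1507 libraries and 15 to 21 in the Olfr160 libraries. In the Olfr160 libraries Olfr73 lay below the even share. Olfr160 took 0.120% to 0.329% in the Olfr1507 libraries and 0.0183% to 0.182% in the Olfr73 libraries (exact permutation p = 0.3), again with overlap. In the Olfr1507 libraries all these shares rest on at most 53 counts.

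Levels of different genes can be compared only per length, as TPM, the share of transcripts after scaling for length and depth. The tagged receptor reached 5594, 4292 and 5195 TPM in the Olfr1507 libraries, 2159.8, 2092 and 1604 TPM in the Olfr73 libraries and 80.5, 205 and 397 TPM in the Olfr160 libraries. The groups did not overlap in any pair. The Olfr1507 level depends on the effective length assigned to that gene, and at the mean length of the other libraries it spanned 1977 to 2441 TPM, which overlaps Olfr73. Among all genes by TPM, the tagged receptor ranked 14, 20 and 16 in Olfr1507, 44, 44 and 66 in Olfr73 and 2159, 803 and 333 in Olfr160. An exact permutation test over the 3 groups of log2 TPM gave p = 0.00357, the smallest that 9 libraries in 3 groups allow (0.00625 after adjustment over 7 such tests), and each pair gave 0.1 (0.117 after adjustment over 21 pairwise tests).

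The tagged receptor was the most abundant Olfr gene by TPM in all Olfr1507 and Olfr73 libraries. It exceeded the next Olfr gene by 461, 240 and 218 times in Olfr1507 and by 30.3, 14.4 and 29.6 times in Olfr73. In the Olfr160 libraries it ranked 5, 2 and 1 among Olfr genes by TPM, and its ratio to the highest other receptor, Olfr1348, was 0.309, 0.803 and 1.73. By counts it was first in these libraries too. In 2 of the 3 Olfr160 libraries the leading receptor per length was therefore an untagged one.

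Of the summed Olfr TPM, the tagged receptor made up 97.6%, 92.3% and 96.1% in Olfr1507, 43.9%, 44.0% and 53.6% in Olfr73, and 1.22%, 2.76% and 6.33% in Olfr160. By counts the shares in Olfr1507 were 94.7%, 85.1% and 91.7%, with 95% Wilson intervals of 94.5% to 94.9%, 84.9% to 85.4% and 91.4% to 91.9%. In Olfr73 they were 22.8%, 23.6% and 32.8%, with intervals of 22.5% to 23.0%, 23.4% to 23.9% and 32.4% to 33.2%. The intervals cover counting error only and are much narrower than the differences between libraries. In Olfr160 the count shares averaged 5.58%, and 3.31% without library 3. The exact permutation p over the 3 groups was 0.00357 on either scale.

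**Figure D2:**
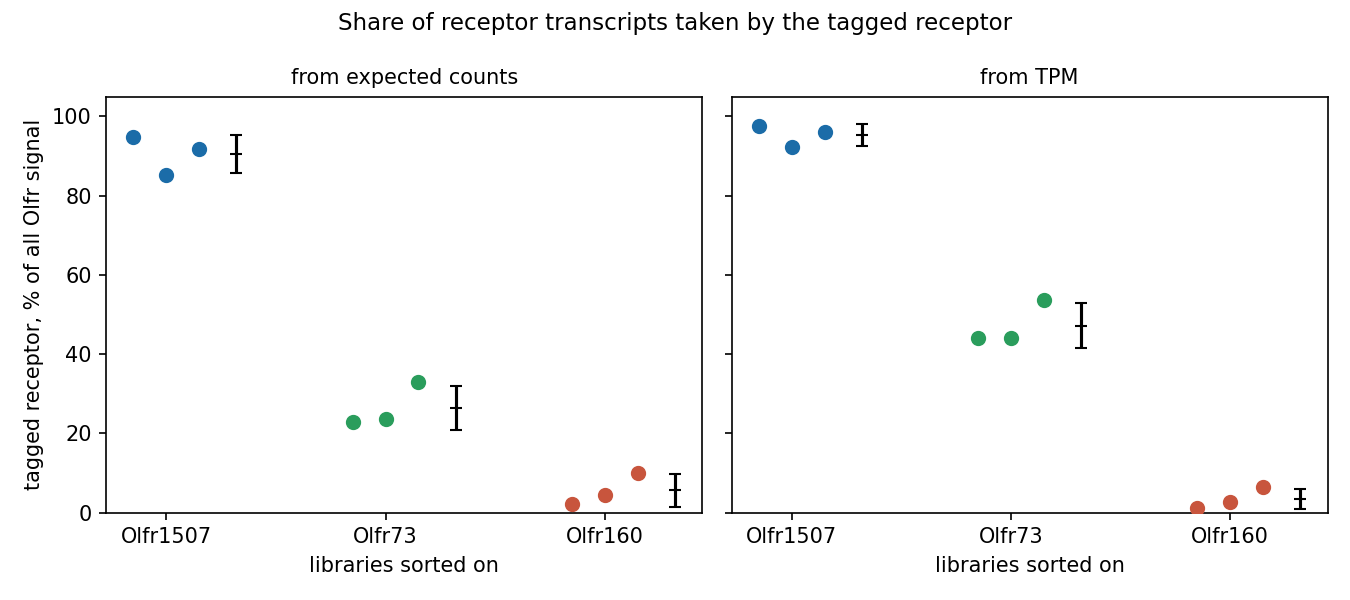
Share of the tagged receptor in the Olfr counts and in the Olfr TPM of each library, in percent. Points are libraries, and the mark beside them is the group mean with its SD. The Olfr1507, Olfr73 and Olfr160 groups do not overlap in either share.

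Because the groups differed in their share of mature neuron markers, the tagged receptor was also set against Omp, the olfactory marker protein of mature neurons. Per 1000 Omp counts it had 129, 120 and 125 counts in Olfr1507, 60.1, 54.2 and 44.7 in Olfr73, and 18.1, 34.3 and 55.4 in Olfr160. On these counts Olfr1507 stayed above both other groups, whereas Olfr73 and Olfr160 overlapped through Olfr160 library 3. The counts are not scaled for length, and the receptors' mean effective lengths in their own libraries were 828, 696 and 2972 bases, in the same order of groups. The exact permutation p over the 3 groups of log2 values was 0.0107 (0.0125 adjusted), and that of Olfr73 over Olfr160 was 0.3 (0.315 adjusted). With TPM in place of counts the values were 257, 228 and 251 in Olfr1507, 146, 127 and 103 in Olfr73 and 9.93, 18.8 and 30.2 in Olfr160, without overlap. The Olfr1507 values use the effective length assigned in its own libraries. At the mean length of the other libraries its TPM would be 2227 in place of 5027, with a range of 1977 to 2441. In Olfr73 the tagged receptor had 1604 to 2159.8 TPM. Omp stood at 14812 to 16492 TPM there and at 18813 to 21754 TPM in Olfr1507. The separation of Olfr1507 from Olfr73 in this ratio therefore rests on the assigned length. The ratio to Omp at the other length was not recomputed.

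Within Olfr160 the library with the highest tagged receptor also had the highest share of mature neuron markers. The marker shares were 3.51%, 4.29% and 5.52% of counts in libraries 1, 2 and 3, and the sustentacular and gland shares were 3.68%, 5.31% and 2.56%. The highest Olfr160 library had 3.07 times the receptor of the lowest per 1000 Omp counts, and 4.88 times in normalised CPM. The part of other cells in this spread was not tested.

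The untagged receptors moved the other way. Summed over all Olfr genes but the tagged one, TPM was 138, 356 and 213 in Olfr1507, 2756, 2666 and 1387 in Olfr73, and 6520, 7217 and 5868 in Olfr160. With the tagged receptor included, the TPM sums came closer, at 5262 ± 556 TPM in Olfr1507, 4222 ± 1069 in Olfr73 and 6762 ± 595 in Olfr160 (mean ± SD, n = 3). The exact permutation p over the 3 groups was 0.0107 (0.0125 adjusted). Olfr1507 and Olfr73 overlapped in this sum (p = 0.3 in the exact permutation test, 0.315 adjusted), and both lay below Olfr160 in every library. The Olfr1507 sum depends on the effective length assigned to that gene. At the mean length of the other libraries, its tagged receptor would average 2227 TPM in place of 5027, with a range of 1977 to 2441. With the untagged 138 to 356 TPM added, the Olfr1507 sums would lie below the lowest Olfr73 sum, 2991 TPM. The overlap of Olfr1507 and Olfr73 in this sum therefore rests on the assigned length. By counts the sums stayed further apart, at 0.279% of all counts in Olfr1507, 0.360% in Olfr73 and 0.863% in Olfr160 (exact permutation p over the 3 groups = 0.0143). Of the 688 other Olfr genes tested, 531 were lower and 1 was higher in Olfr1507 over Olfr160, 263 were lower and 1 was higher in Olfr1507 over Olfr73, and 100 were lower and 0 higher in Olfr73 over Olfr160. Across all genes tested, 27.7%, 19.9% and 10.5% were lower in these comparisons. The summed Olfr TPM was examined after the values of the tagged receptors had been seen.

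**Figure D3:**
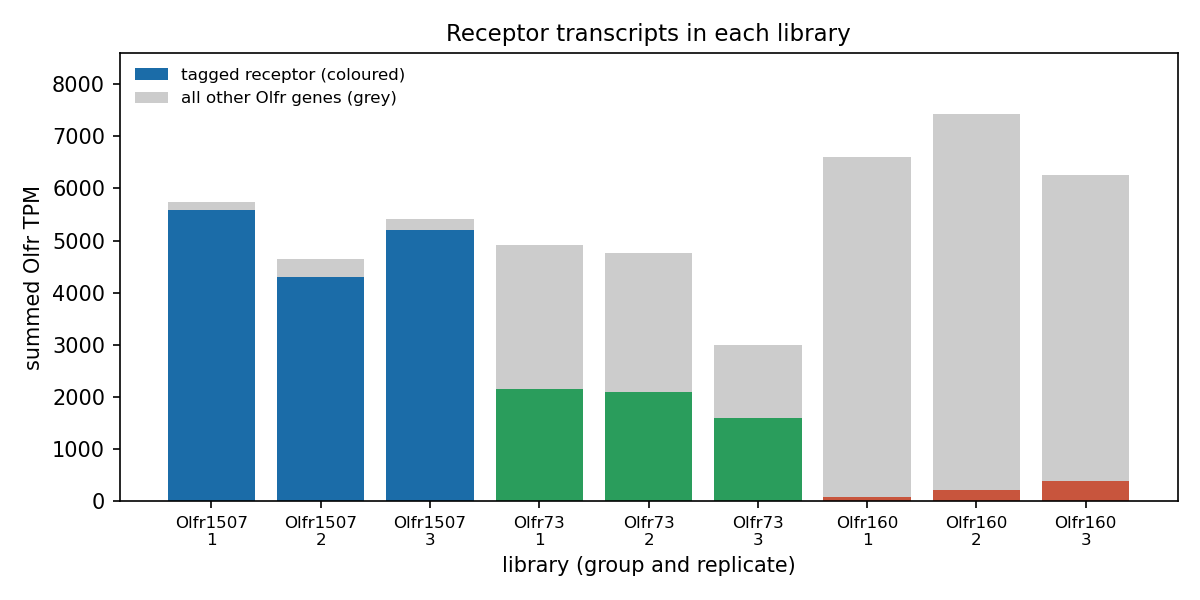
Summed TPM of all Olfr genes in each library, split into the tagged receptor and all other Olfr genes, stacked from 0. The total ranges from 2991 in Olfr73 library 3 to 7422 in Olfr160 library 2, while the tagged part ranges from 80.5 to 5594.

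The size of the Olfr1507 difference depended on the unit. Olfr1507 over Olfr160 was 41.5 as a ratio of mean normalised CPM but 83.6 as a ratio of mean TPM, and Olfr1507 over Olfr73 was 84.3 in normalised CPM and 162 in TPM. For Olfr73 the units gave like ratios, 836 in normalised CPM and 852 in TPM for Olfr73 over Olfr1507. For Olfr160 over Olfr73 the ratio was 198 in normalised CPM and 116 in TPM.

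TPM divides each count by the effective length of the gene, the average number of positions at which a fragment can start, weighted by the transcripts to which reads were assigned. That length follows from the ratio of the count to the TPM, set to a scale by genes with 1 transcript, of which 273 to 403 per library were used. For Olfr1507 it was 813, 858 and 812 bases in the Olfr1507 libraries. The Olfr73 libraries gave 1703, 1990 and 1694 bases, and the Olfr160 libraries 2097, 1852 and 1847 bases. The lengths did not overlap, with a ratio of own to other libraries of 0.444 and p = 0.0238 in a two-sided exact permutation test, its floor for 3 libraries against 6. This comparison was also chosen after the values had been seen.

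**Figure D4:**
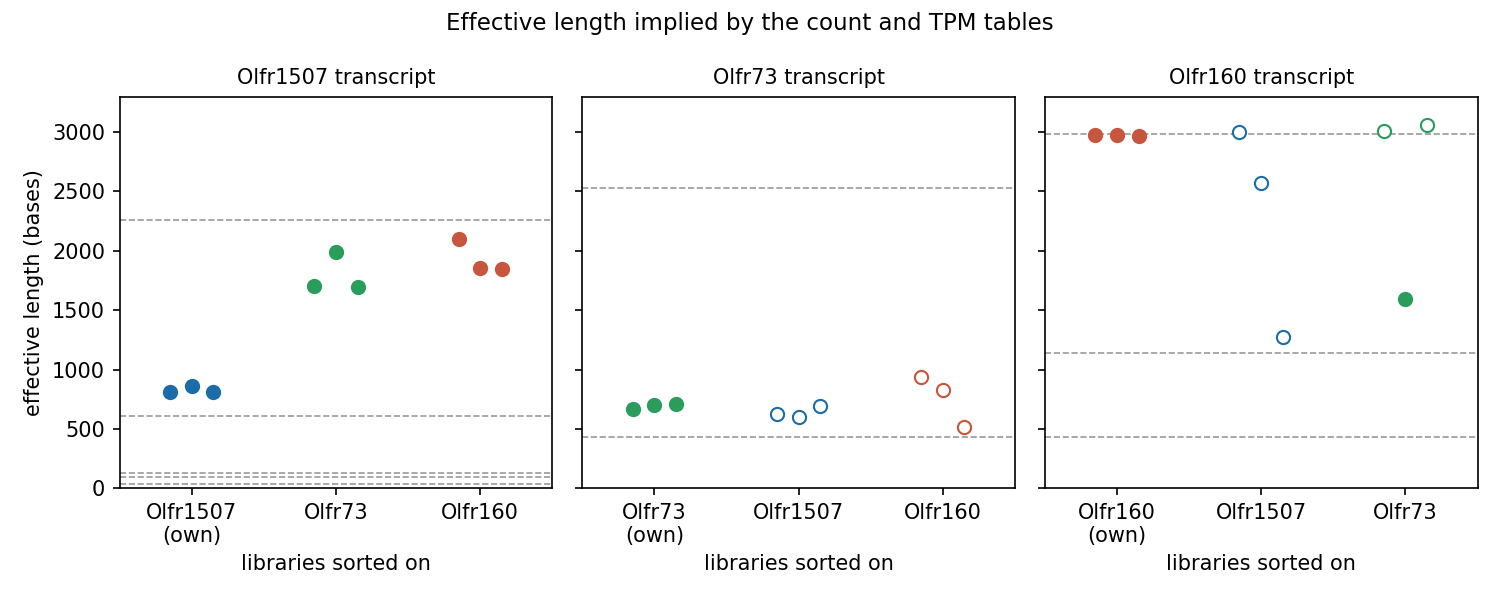
Effective length in bases implied by the deposited counts and TPM for each tagged receptor in each library. Olfr1507 has 812 to 858 bases in its own libraries and 1694 to 2097 bases in the others.

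Annotated transcripts of Olfr1507 bracket these lengths. A single-exon transcript of 1112 bases has an effective length of 589 to 622 bases, and the longest, of 2803 bases, one of 2239 to 2283 bases. Across 7297 genes with several transcripts, at least 100 counts and at least 1 TPM in every library, the ratio of the Olfr1507 libraries to the other 6 had a median of 1.00 and ran between 0.876 and 1.18 from the 5th to the 95th percentile. Olfr1507 had the lowest ratio of them all. With the mean length of the other 6 libraries, 1864 bases, its level in its own libraries would be 2227 ± 234 TPM in place of 5027 ± 667. That range, 1977 to 2441 TPM, overlaps the 1604 to 2159.8 TPM of Olfr73 in the Olfr73 libraries.

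Olfr73 had an effective length of 669, 705 and 713 bases in its own libraries, between those of its transcripts of 942 bases (418 to 452) and 3048 bases (2516 to 2547). Olfr160 had 2975, 2972 and 2969 bases in its own libraries, the length of its longest transcript of 3492 bases (2956 to 3008). In Olfr73 library 2, where Olfr160 had 119 counts, the length was 1598 bases. For these receptors own and other libraries overlapped (exact permutation p = 1 for Olfr73 and 0.476 for Olfr160), and the lengths outside the own libraries rest on few counts.

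Genes of the odorant signalling cascade were counted beside the receptors. Of 20 transduction genes, 16 were higher and 2 lower in Olfr1507 over Olfr160, 9 were higher and 1 lower in Olfr1507 over Olfr73, and 7 were higher and 1 lower in Olfr73 over Olfr160. Their median log2 fold changes were 1.27, 0.66 and 0.49. Among all genes tested, 48.4%, 34.4% and 17.9% passed in these comparisons. Cnga2, a subunit of the cyclic nucleotide-gated channel, had 10798 ± 546 normalised CPM in the Olfr1507 group and 3102 ± 800 in the Olfr160 group. Its log2 fold change was 1.80 ± 0.18 (edgeR, adjusted p = 7.49e-05). Adcy3, the adenylyl cyclase that makes cAMP in the cilia, rose by 1.60 ± 0.20 in the same comparison (edgeR, adjusted p = 0.000249). Omp itself was 1.13 ± 0.17 higher in Olfr1507 over Olfr160 (edgeR, adjusted p = 0.000816). The remaining transduction genes did not pass, 2 in Olfr1507 over Olfr160, 10 in Olfr1507 over Olfr73 and 12 in Olfr73 over Olfr160. Cnga2 also belongs to the list of mature neuron markers.

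Genes listed for receptor trafficking to the membrane passed the test about as often as all genes. Of 9 trafficking genes tested, 2 were higher and 2 lower in Olfr1507 over Olfr160, 2 higher and 1 lower in Olfr1507 over Olfr73, and 1 higher and 1 lower in Olfr73 over Olfr160, beside the 48.4%, 34.4% and 17.9% of all genes that passed. Their median log2 fold changes were -0.44, -0.49 and -0.27. Reep5, a member of the receptor expression-enhancing protein family, had log2 fold changes of -4.68 ± 0.41 in Olfr1507 over Olfr160 and -2.34 ± 0.39 in Olfr1507 over Olfr73 (edgeR, adjusted p = 4.09e-05 and 0.00213). Rtp1, a chaperone needed for receptors to reach the surface, stood at 2037 ± 266 normalised CPM in Olfr1507, 923 ± 57.8 in Olfr73 and 650.1 ± 222 in Olfr160. It was higher in Olfr1507 over Olfr160 by 1.65 ± 0.24 and over Olfr73 by 1.14 ± 0.23 (edgeR, adjusted p = 0.000538 and 0.0056). Of 15 genes linked to receptor choice, 4 were higher and 3 lower in Olfr1507 over Olfr160, 3 higher and 2 lower in Olfr1507 over Olfr73, and 3 higher and 0 lower in Olfr73 over Olfr160. The median log2 fold changes of the choice genes were 0.24, 0.05 and 0.20. Lhx2, a transcription factor that binds receptor enhancers, was 0.76 ± 0.15 higher in Olfr1507 over Olfr73 (edgeR, adjusted p = 0.00504). It did not pass in Olfr1507 over Olfr160, at 0.38 ± 0.15 (edgeR, adjusted p = 0.0609). Ldb1 went the other way, at -0.74 ± 0.24 in Olfr1507 over Olfr160 (edgeR, adjusted p = 0.0294). Over Olfr73 Ldb1 did not pass, at -0.68 ± 0.24 (edgeR, adjusted p = 0.052). Ebf1 passed in neither, at 0.28 ± 0.23 over Olfr160 and 0.08 ± 0.23 over Olfr73 (edgeR, adjusted p = 0.347 and 0.818). Cbx5, on the list of choice genes, was lower in Olfr1507. Its log2 fold change was -0.94 ± 0.11 over Olfr160 and -0.78 ± 0.11 over Olfr73 (edgeR, adjusted p = 0.000224 and 0.00119).

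Markers of the zones of the epithelium, which mark where in the nose a neuron lies, differed between the groups. The dorsal ones mainly set Olfr1507 apart from the others. All 4 dorsal genes tested were lower in Olfr1507 over Olfr160 and over Olfr73, where 27.7% and 19.9% of all genes were lower. Nqo1, an oxidoreductase of dorsal neurons, had 1.73, 7.76 and 3.07 normalised CPM in Olfr1507, 915, 571 and 946 in Olfr73 and 449, 672 and 1071 in Olfr160. Its Olfr73 and Olfr160 libraries overlapped (edgeR, log2 fold change 0.15 ± 0.45, adjusted p = 0.846). Acsm4, another dorsal marker, was higher in Olfr73 over Olfr160 by 1.83 ± 0.34 (edgeR, adjusted p = 0.00941). In that comparison 2 dorsal genes were higher, Acsm4 and Robo2, and Dhrs3 was lower, with a log2 fold change of -1.84 ± 0.42 (edgeR, adjusted p = 0.0186), named after its values were seen.

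Of 6 ventral genes, 3 were higher and 1 lower in Olfr1507 over Olfr160, 5 higher and 0 lower in Olfr1507 over Olfr73, and 0 higher and 5 lower in Olfr73 over Olfr160. The shares of all genes that passed were 48.4%, 34.4% and 17.9%. Nrp2, a guidance receptor of ventral axons, had 134, 130.3 and 137 normalised CPM in Olfr1507, 4.49, 12.03 and 6.24 in Olfr73 and 27.4, 35.0 and 25.4 in Olfr160. All groups were separate for Nrp2, with a log2 fold change of -1.95 ± 0.31 for Olfr73 over Olfr160 (edgeR, adjusted p = 0.00502). Ncam2, an adhesion molecule of ventral neurons, was higher in Olfr1507 over Olfr73 by 2.39 ± 0.40 (edgeR, adjusted p = 0.00223). The Olfr160 libraries thus held both dorsal and ventral markers beside their many untagged receptors, and the part of other neurons in this was not tested.

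The genes whose log2 normalised CPM was most like that of a tagged receptor were ranked by Pearson r over the 9 libraries. Gene models with symbols beginning in Gm or ending in Rik were left out. The libraries share 3 groups and are not independent points, so r is given only as a description. For Olfr1507 the closest was Hdac11, a histone deacetylase (r = 0.997), at 634 normalised CPM in Olfr1507, 128 in Olfr73 and 174 in Olfr160. Gldc, Necab3, Slc39a11 and Sytl1 followed, with r of 0.997 down to 0.9897. For Olfr73 the closest was Cpsf6, a factor of messenger RNA cleavage (r = 0.99), at 398 normalised CPM in Olfr73, 290.3 in Olfr1507 and 292 in Olfr160. Thra, Krt90, Serinc3 and Dock3 followed. Serinc3 had the widest contrast of these, 387 normalised CPM in Olfr73 against 20.0 in Olfr1507 and 19.1 in Olfr160.

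For Olfr160 the closest was Wwtr1, a transcriptional coactivator (r = 0.989), followed by Olfr373, Gbp4, Olfr125 and Trim5. All of these were low, at 0.841 to 6.32 normalised CPM in Olfr160, and at 0 in every Olfr1507 library. Genes with r above 0.95 numbered 167 for Olfr1507, 11 for Olfr73 and 97 for Olfr160.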

How the data were processed

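RNA of sorted olfactory neurons was measured in 9 libraries, 3 per group. The authors aligned reads with STAR 2.6.1 to mm10 and quantified them with RSEM 1.3.1, per the submitters' processing notes, which also list DESeq2. These notes name no annotation release. The authors deposited 1 table of expected counts and 1 of TPM. Column names are older receptor names, matched to the labels as synonyms. The design text speaks of duplicates, while 3 libraries per group were used here. Coordinates and sequences were taken from GENCODE M21 (mm10), in which 98.7% of transcript identifiers were found with their version.

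Expected counts were rounded to whole numbers (all 27 values of the tagged receptors already were) and fitted in edgeR 4.0.16 (R 4.3.3; filterByExpr, TMM, quasi-likelihood F test, all 9 libraries, Benjamini-Hochberg over 16399 genes, adjusted p threshold 0.05). The SE is the size of the log2 fold change divided by the square root of F. Shares, ratios to Omp, summed TPM and effective lengths were compared by exact permutation over libraries (scipy 1.17.1, Python 3.11.15). Alternatives were RLE factors, unadjusted library sizes, scaling without Olfr genes, other filters, DESeq2 1.42.0, limma-voom and limma-trend (limma 3.58.1) on TPM, only the 6 libraries compared, the replicate number as a block, and leaving out each library. The fit was tested on simulated data.

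The members, lists and tests were chosen with earlier results of these data known. Genes named are the tagged receptors, the 5 most like each by Pearson r, the closest Olfr gene, 10 signalling, trafficking and zone genes, and list members with the lowest adjusted p. Lhx2, Ldb1, Ebf1 and Dhrs3 were named in addition. The rule asked for protein identity of the closest receptor, and coding-sequence identity was used. Replicate numbers do not pair the samples: same-numbered libraries correlated at -0.163 to 0.122 in their deviations from group means.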

Additional observations from a re-analysis of the deposited data

How the results depend on the processing

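Of 353 recomputed values, 331 kept their direction and their side of the threshold or moved by less than their spread. Numbers of genes passing were instead judged by a set ratio to the main run. The tally includes group means that could not change, since the library left out was from another group. In every alternative run, including each left-out library, each receptor stayed higher in its own group and past the threshold. With the replicate number as a replicate block, 7398 genes passed in Olfr1507 over Olfr160, 4804 in Olfr1507 over Olfr73 and 2485 in Olfr73 over Olfr160, and no receptor call changed. Only 3 of 9 libraries correlated best with a library of their own number.

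Between groups without the tag, leaving out 1 library gave log2 fold changes of -0.16 to 0.77 for Olfr73 (Olfr1507 over Olfr160), -1.57 to -0.61 for Olfr1507 (Olfr73 over Olfr160) and -2.42 to 0.40 for Olfr160 (Olfr1507 over Olfr73). The sign turned without Olfr1507 library 2 (-0.16) and without Olfr73 library 2 (0.40). Limma-voom gave -1.27 for Olfr1507 in Olfr73 over Olfr160. At an adjusted p of 0.01, 4969, 2837 and 769 genes passed in the order of comparisons above. Limma-voom called 4453 genes for Olfr73 over Olfr160. Leaving out 1 library gave 3657 to 5546 genes for Olfr1507 over Olfr73, the lowest without Olfr1507 library 1, and 976 to 3062 for Olfr73 over Olfr160, with 976 without Olfr160 library 2, 1408 without Olfr160 library 1 and 1878 without Olfr73 library 3. The cause was not tested.

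With TPM in place of counts, the tagged share in Olfr73 was 47.2%, and the receptor per 1000 Omp was 245.5 in Olfr1507 and 125 in Olfr73. The Olfr1507 value rests on the effective length assigned in its own libraries. Per 1000 counts of the transduction list in place of Omp it was 27.0 in Olfr1507, 14.3 in Olfr73 and 9.89 in Olfr160. Leaving out 1 library gave 0.436 to 0.456 for the Olfr1507 length ratio, with p = 0.0714 in the exact permutation test, the smallest that 2 libraries against 6 allow, whenever an Olfr1507 library was left out, and -2888 to -1926 TPM for the summed Olfr level of Olfr73 minus Olfr160, which moved by more than its spread without Olfr73 library 3 (-1926). Depth limits the receptors outside their own groups, where 6 to 119 counts lie behind the Olfr73 and Olfr160 values.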
